A study of Mus musculus with 19 samples.

Results

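Transcripts of the islet hormones and of the secretory granule proteins that serve as autoantigens in type 1 diabetes were followed across pancreatic lymph nodes (PLNs) and fat of NOD mice. The genes are Ins1, Ins2, Iapp, Gcg, Sst, Ppy, Ptprn, Chga, Pdx1 and Slc30a8, and a probe set (the group of oligonucleotides that yields 1 signal) was taken when the platform annotation gave it the symbol of one of them. The rule found 13 of the 45037 probe sets tested, for 9 of the 10 genes, out of 18193 genes with a named probe set. No probe set carried the symbol Ins1, and this gene was not analysed here. Iapp had 4 probe sets, Pdx1 had 2 and the other 7 genes had 1 each. Matching probe sets to these genes used no measured value, but the genes were chosen with earlier results of these data known.

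The 19 Affymetrix Mouse 430 2.0 arrays came from female NOD (NOD/LtJx) mice, a strain that develops autoimmune diabetes spontaneously. PLNs were profiled in new onset diabetic mice treated with alpha1 antitrypsin (AAT, 4 arrays), in new onset diabetic mice (DIA, 2 arrays) and in non-diabetic mice (NOR, 4 arrays). Fat was profiled in diabetic mice given Power Mix (PM, 3 arrays), a combination of rapamycin with an IL2.Ig and an antagonist-type IL15.Ig fusion protein, and in AAT, DIA and NOR mice (2 arrays each). The labels describe each sample as tissue of a female NOD mouse, and the sources used here do not give the age at sampling, the treatment dose or the time after treatment. The labels do not say which arrays share an animal, so the p-values measure the spread between these arrays only.

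Within the islet, beta cells package insulin, from the genes Ins1 and Ins2 in the mouse, together with amylin (Iapp) in dense core granules. Alpha, delta and PP cells make glucagon (Gcg), somatostatin (Sst) and pancreatic polypeptide (Ppy). The granules also hold chromogranin A (Chga), the membrane protein IA-2 (Ptprn) and the zinc transporter ZnT8 (Slc30a8), while Pdx1 is a transcription factor of beta cells. T cells or antibodies against insulin, amylin, chromogranin A, IA-2 and ZnT8 are known from type 1 diabetes or from the NOD mouse. The PLNs drain the pancreas and are a site where T cells of NOD mice meet islet antigens, and stromal and dendritic cells of lymph nodes can transcribe some tissue antigens themselves under regulators such as Aire.

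The deposited signals are linear intensities, each array scaled to the same trimmed mean. In whole tissue, fewer cells of a type and less RNA per cell cannot be told apart. The tissue labels held: the summed signal of 11 lymphocyte markers was 26320 to 53050 in PLNs and 1244 to 2955 in fat, and that of 9 adipocyte markers was 2756 to 59740 in PLNs and 268900 to 687600 in fat. The low end of the arrays differed between the PLN groups. The 20th percentile of an array's signals was 18.1 to 40.5 in AAT, 28.8 and 59.6 in DIA, and 51.9 to 100.8 in NOR. Single PLN arrays also stood apart in pancreatic acinar transcripts (digestive enzymes and other products of the exocrine pancreas). The summed signal of 21 acinar genes was 467700 in AAT 3 and 1829 to 5275 in the other AAT arrays, 20530 and 2556 in DIA, and 1475 to 4714 in NOR.

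Transcripts of several of these genes were lowest in AAT PLNs. Ptprn and the main Iapp probe set fell in AAT relative to NOR, by 23.1-fold and 7.56-fold, and these were the only 2 of the 13 probe sets called at an adjusted p under 0.05 in any PLN comparison. All 4 AAT signals of Ptprn lay under the 20th percentile of their own arrays. With low signals raised to the 20th percentile of all PLN signals pooled, its change was −2.01 on the log2 scale. Changes are given relative to the median change of all probe sets, which was −0.723 on the log2 scale for AAT vs NOR, −0.582 for AAT vs DIA and −0.112 for DIA vs NOR. The adjusted p-values belong to the changes as measured. The Ins2 probe set passed neither the adjusted nor the unadjusted threshold in any of them.

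**Figure D1:**
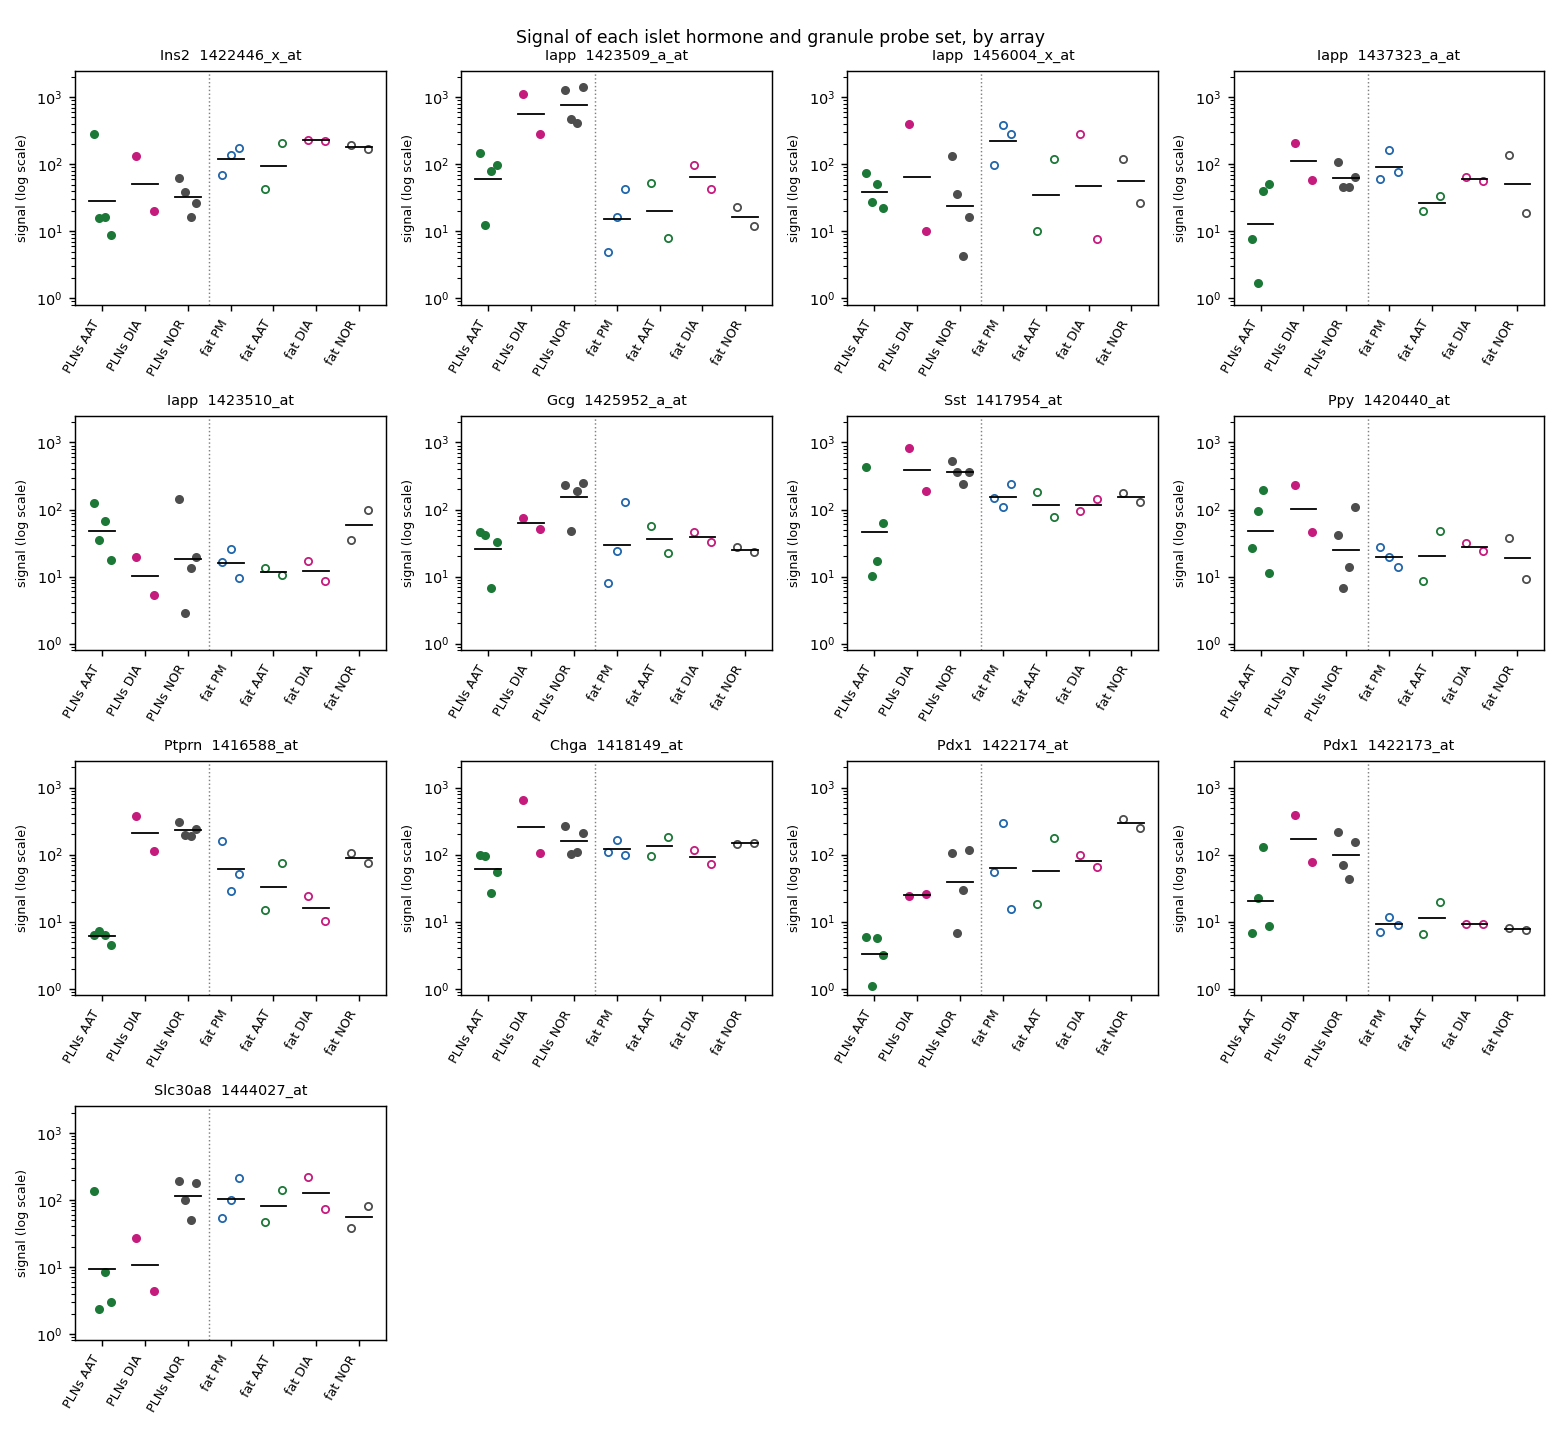
Signal (linear intensity on a log axis) of the 13 probe sets of islet hormone and granule genes in each array. Filled points are PLN arrays and open points fat arrays, coloured by group, and a bar marks the geometric mean of a group. The 4 AAT points of Ptprn lie between 4.56 and 7.35, below all other PLN arrays.

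Ptprn encodes IA-2, a phosphatase-like protein that spans the granule membrane. Its probe set, 1416588_at, gave signals of 6.31, 7.35, 6.26 and 4.56 in AAT, 381.3 and 113.3 in DIA, and 304.8, 199.6, 187.2 and 244.3 in NOR. The AAT arrays lay below every other PLN array with no overlap, and each of them was under the 20th percentile of its own array, while no DIA or NOR array was. Relative to NOR, Ptprn fell by 4.53 on the log2 scale in AAT (SE 0.88, adjusted p = 0.00792, limma, lower in 4 of 4 arrays). Without any 1 array this change stayed between −4.71 and −4.46, with an adjusted p of at most 0.0465. Its size depends on how low signals are treated. Raising them to the 20th percentile of all PLN signals pooled gave −2.01 (adjusted p = 0.0383). Adding 32 before log2 gave −2.31 (adjusted p = 0.00725). Relative to DIA the change in AAT was −4.53 (SE 1.08, adjusted p = 0.074), which did not pass. The adjusted p was 0.0294 without DIA 2, 0.038 without AAT 1 and 0.0465 without AAT 2. Without DIA 1 it was 0.611, with a change of −3.93. DIA and NOR differed by −0.03 (SE 1.08, adjusted p = 0.982).

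In fat, where Ptprn ranged from 10.4 to 162.2 over the 9 arrays, AAT gave 15.0 and 74.1, DIA gave 24.3 and 10.4, and NOR gave 105.1 and 75.7. The AAT and DIA signals overlapped there. Both AAT arrays and both DIA arrays of fat lay below both NOR arrays, and AAT vs NOR was not tested in fat. The AAT vs DIA change of Ptprn differed between PLNs and fat by −5.69 on the log2 scale (SE 1.55, unadjusted p = 0.000561), and the adjusted p of this interaction in limma was 0.308, so a difference between the tissues was not established over all probe sets.

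Iapp encodes amylin, the peptide released with insulin. Its probe set with the highest mean, 1423509_a_at, gave 149.8, 12.3, 78.7 and 98.7 in AAT, 1126 and 284.6 in DIA, and 1271, 469.8, 406.9 and 1424 in NOR. All AAT arrays were below all DIA and NOR arrays, and DIA overlapped with NOR. Iapp fell by 2.92 on the log2 scale in AAT relative to NOR (SE 0.74, adjusted p = 0.0185, limma). The call did not hold without NOR 1 (adjusted p = 0.0883) or without NOR 4 (adjusted p = 0.0789), the arrays with the highest Iapp signals, although the change stayed at −2.75 and −2.65. Relative to DIA the change in AAT was −2.62 (SE 0.91, adjusted p = 0.131), and DIA vs NOR gave −0.33 (SE 0.91, adjusted p = 0.923).

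Of the other Iapp probe sets, 1 was also lower in AAT without passing the adjusted test, and 2 were not. Probe set 1437323_a_at gave 7.62, 1.69, 40.6 and 50.9 in AAT, 207.5 and 59.3 in DIA, and 109.0, 45.3, 45.7 and 65.4 in NOR, a change of −1.55 in AAT vs NOR (adjusted p = 0.219). In AAT vs DIA, where its arrays did not overlap, the change was −2.53 (SE 1.39, adjusted p = 0.269). Probe set 1456004_x_at gave 73.5, 27.4, 50.5 and 22.2 in AAT, 398.6 and 10.2 in DIA, and 132.5, 35.6, 4.27 and 16.1 in NOR, and its change was 1.42 (adjusted p = 0.75). Probe set 1423510_at gave 126.3, 34.7, 67.8 and 17.6 in AAT, 19.6 and 5.25 in DIA, and 145.5, 2.88, 13.5 and 19.7 in NOR, with a change of 2.11 (adjusted p = 0.488). For these the groups overlapped in AAT vs NOR, and the last 2 had the opposite sign. The suffix of an _x_at probe set marks that some of its oligonucleotides can match other transcripts. The call of Iapp in AAT vs NOR therefore rests on 1 of its 4 probe sets.

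**Figure D2:**
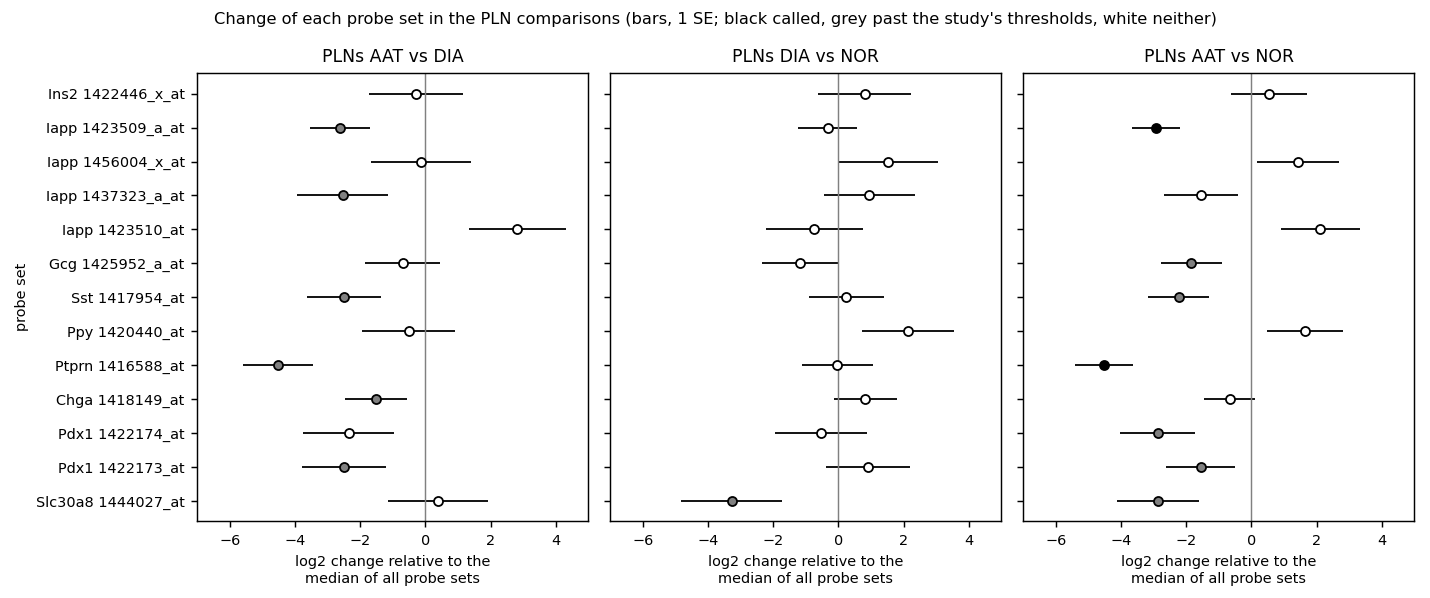
Log2 change of each probe set in the 3 PLN comparisons, relative to the median change of all probe sets, with bars of 1 SE. Black points were called at an adjusted p under 0.05 (Ptprn and Iapp 1423509_a_at in AAT vs NOR), grey points passed the study's thresholds only, and white points passed neither.

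Among the hormones of the other islet cells, Sst gave 430.5, 10.1, 17.1 and 62.0 in AAT, 834.8 and 186.3 in DIA, and 528.6, 360.9, 241.1 and 363.4 in NOR. AAT 1 lay within the NOR range and the other AAT arrays lay below all other PLN arrays. The change of Sst was −2.23 in AAT vs NOR (SE 0.93, adjusted p = 0.0701) and −2.51 in AAT vs DIA (SE 1.14, adjusted p = 0.205). Without AAT 1, the adjusted p of Sst in AAT vs NOR was 0.00567, with a change of −3.21. Among fits without 1 array, the change was smallest without AAT 2 (−1.58, adjusted p = 0.136). The adjusted p was highest in these fits without NOR 1 (0.2). Over all alternatives of the processing, the change of Sst ranged from −3.21 to −1.54 (adjusted p 0.00567 to 0.342). Gcg gave 45.4, 41.8, 6.79 and 33.1 in AAT, 75.0 and 51.1 in DIA, and 230.5, 48.4, 188.9 and 248.1 in NOR. All AAT arrays were below all DIA and NOR arrays, with NOR 2 close to them. Gcg changed by −1.84 in AAT vs NOR (SE 0.94, adjusted p = 0.109), which did not pass, and by −1.18 in DIA vs NOR (SE 1.16, adjusted p = 0.779).

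Ppy gave 26.3, 94.4, 192.5 and 11.2 in AAT, 230.1 and 46.1 in DIA, and 41.2, 6.70, 13.8 and 107.3 in NOR. These groups overlapped. Its change was 1.65 in AAT vs NOR (SE 1.16, adjusted p = 0.637) and 2.14 in DIA vs NOR (SE 1.42, adjusted p = 0.691). Neither change passed the test.

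The insulin gene Ins2 was near the low end of most PLN arrays. Its probe set 1422446_x_at gave 283.8, 15.7, 16.2 and 8.86 in AAT, 133.3 and 20.1 in DIA, and 63.6, 38.3, 16.4 and 26.5 in NOR. It was below the 20th percentile of the array in 8 of the 10 PLN arrays, the exceptions being AAT 1 and DIA 1, and the groups overlapped throughout. The change of Ins2 was 0.54 in AAT vs NOR (SE 1.17, adjusted p = 0.937) and 0.80 in DIA vs NOR (SE 1.44, adjusted p = 0.923). AAT 1 was thus highest for Ins2 and also carried the highest Sst and Iapp signals among the AAT arrays. The signal of an insulin probe set ending in _x_at may include the transcript of the near-identical Ins1, which could not be checked because the oligonucleotide sequences were not used here.

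Chga encodes chromogranin A, a core protein of dense core granules in endocrine cells and neurons. It gave 97.8, 94.3, 27.0 and 55.4 in AAT, 654.2 and 104.4 in DIA, and 269.7, 101.0, 110.7 and 213.7 in NOR. All AAT arrays were below all DIA and NOR arrays, by a narrow margin for AAT 1 and AAT 2. The change of Chga was −0.66 in AAT vs NOR (SE 0.79, adjusted p = 0.276) and −1.52 in AAT vs DIA (SE 0.96, adjusted p = 0.278).

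Slc30a8, the zinc transporter that loads insulin granules with zinc, gave 133.7, 2.37, 8.30 and 2.97 in AAT, 26.6 and 4.35 in DIA, and 191.3, 98.6, 49.2 and 175.1 in NOR. Both DIA arrays were below all NOR arrays, as were AAT 2, AAT 3 and AAT 4, while AAT 1 lay within the NOR range. Its change was −3.28 in DIA vs NOR (SE 1.54, adjusted p = 0.467) and −2.86 in AAT vs NOR (SE 1.26, adjusted p = 0.0963). Slc30a8 was the only one of the 13 probe sets whose DIA and NOR arrays did not overlap, where 23.1% of all probe sets did not. Without AAT 1, it was called in AAT vs NOR (−4.05, adjusted p = 0.0138). Among fits without 1 array, the change was smallest without AAT 2 (−2.28, adjusted p = 0.186). The adjusted p was highest in these fits without NOR 1 (0.243). In 6 of the 10 PLN arrays, both DIA arrays among them, Slc30a8 lay under the array's 20th percentile. Over all alternatives of the processing, its AAT vs NOR change ranged from −4.05 to −0.568 (adjusted p 0.0138 to 0.535). Its DIA vs NOR change ranged from −4.39 to −0.977.

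Pdx1, which activates the insulin and Iapp genes in beta cells, was measured by 2 probe sets. Probe set 1422174_at gave 5.81, 1.10, 5.70 and 3.15 in AAT, 24.4 and 26.0 in DIA, and 106.3, 6.82, 29.4 and 117.2 in NOR. Probe set 1422173_at gave 6.86, 22.8, 130.9 and 8.66 in AAT, 386.6 and 78.0 in DIA, and 217.5, 69.2, 43.3 and 152.7 in NOR. Both were lowest in AAT arrays, but AAT 3 overlapped with DIA and NOR for the second. The first lay under the array's 20th percentile in 8 of the 10 PLN arrays, all AAT arrays among them. The changes in AAT vs NOR were −2.88 (SE 1.15, adjusted p = 0.0743) and −1.56 (SE 1.06, adjusted p = 0.187). Neither passed the threshold. Over all alternatives of the processing, the change of the first ranged from −3.67 to −0.226 (adjusted p 0.0333 to 0.554).

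Counted over the 13 probe sets, AAT vs NOR gave 2 calls, both lower, against a background of 3.74% of all probe sets. With the thresholds that the study used (more than a 2-fold change and an unadjusted p of up to 0.05), 7 of the 13 were lower and 0 higher, where 20% of all probe sets were lower and 3.36% higher. The 7 were Iapp 1423509_a_at, Gcg, Sst, Ptprn, both Pdx1 probe sets and Slc30a8. The arrays of AAT and NOR did not overlap for 5 of the 13, with a background of 15.3%. The median change as measured was −2.96 over the 9 genes (1 probe set each) and −0.51 over all genes. How signals were scaled moved the background. Of the probe sets past the study's thresholds, 85.6% were lower in AAT as scaled in the files. This share was 51.7% after quantile normalization and 33.1% after centring each array on its median. Of the 13, 5 were lower in both, with 2 and 1 higher. The 20% and 3.36% belong to the scaling in the files and are no background for these counts.

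AAT vs DIA gave 0 calls among the 13 in limma, with 6 at an unadjusted p under 0.05, and the background of calls was 0.0999%. At the study's thresholds 6 were lower and 0 higher, where 11.7% of all probe sets were lower and 4.83% higher. These were Iapp 1423509_a_at, Iapp 1437323_a_at, Sst, Ptprn, Chga and Pdx1 1422173_at. The arrays did not overlap for 6 of the 13, with a background of 19.5%. The count at the study's thresholds rested on DIA 1, since without it 1 of the 13 remained past them. DIA vs NOR gave 0 calls in limma, with 1 at an unadjusted p under 0.05, and a background of 0.0555%. Past the study's thresholds 1 probe set, Slc30a8, was lower and 0 were higher, where 7.15% of all probe sets were lower and 2.66% higher, and the arrays of 1 did not overlap, with a background of 23.1%. A share of 7.69% (1 of 13) is near the first of these backgrounds and below the last. Slc30a8 was no longer past the study's thresholds without NOR 1, NOR 2, NOR 4 or DIA 2. All 3 comparisons share arrays, so their counts are not independent of each other.

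The Ptprn and Iapp promoters are shown because a probe set of each fell in AAT PLNs, and that of Sst because it was also lowest in AAT 2, AAT 3 and AAT 4. The windows are RefSeq sequence on GRCm38.p6, running 250 bases before to 50 after the annotated start, 5′ to 3′ along the gene. Capitals mark TAAT on either strand (TAAT or ATTA), the core letters that homeodomain factors such as Pdx1 bind, and the cyclic AMP response element TGACGTCA.
Iapp, chr6:142298175-142298474, + strand: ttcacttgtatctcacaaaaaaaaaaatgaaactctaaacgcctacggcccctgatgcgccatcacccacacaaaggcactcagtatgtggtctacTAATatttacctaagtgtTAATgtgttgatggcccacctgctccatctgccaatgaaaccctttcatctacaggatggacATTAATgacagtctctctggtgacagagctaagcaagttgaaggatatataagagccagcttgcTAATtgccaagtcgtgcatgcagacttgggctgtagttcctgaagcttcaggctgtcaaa
Sst, chr16:23890795-23891094, − strand: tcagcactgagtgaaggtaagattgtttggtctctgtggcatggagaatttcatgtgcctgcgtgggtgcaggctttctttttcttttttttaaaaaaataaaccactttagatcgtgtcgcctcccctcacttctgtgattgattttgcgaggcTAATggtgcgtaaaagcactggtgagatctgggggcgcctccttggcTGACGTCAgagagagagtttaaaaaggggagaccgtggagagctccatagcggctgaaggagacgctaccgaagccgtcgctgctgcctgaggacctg
Ptprn, chr1:75264159-75264458, − strand: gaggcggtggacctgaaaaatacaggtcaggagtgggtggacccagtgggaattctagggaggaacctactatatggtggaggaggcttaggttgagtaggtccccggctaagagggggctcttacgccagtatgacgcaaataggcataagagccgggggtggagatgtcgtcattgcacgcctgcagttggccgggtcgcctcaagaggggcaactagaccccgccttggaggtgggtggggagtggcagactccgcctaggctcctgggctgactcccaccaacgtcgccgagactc
Ptprn has a pair of annotated starts, and the window of one is shown. Matches may overlap. The Iapp window held 5 matches to TAAT, the Sst window 1 match to TAAT and 1 to TGACGTCA, and the shown Ptprn window none of either. TAAT occurred in 58% and TGACGTCA in 1.79% of the 32851 RefSeq promoter windows of this length. Windows were found for all genes of the set except Ins2 and Slc30a8. A match describes letters only.

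PLNs differed from fat for 4 of the 13 probe sets when the 3 groups common to both tissues were averaged, 2 higher and 2 lower, where 19.8% of all probe sets were called higher and 28.3% lower. Iapp 1423509_a_at was 284.6 to 1424 in DIA and NOR PLNs and 4.90 to 96.4 in fat, and only AAT PLNs overlapped with fat. It rose by 3.71 in PLNs (SE 0.69, adjusted p = 0.000307). The other 3 Iapp probe sets differed by 0.07 to 0.35 and were not called. Ins2 ran the other way, with 8.86 to 283.8 in PLNs against 42.9 to 232.8 in fat, a fall of 1.83 (SE 0.73, adjusted p = 0.0198). The call of Ins2 was lost without fat AAT 2 (adjusted p = 0.0827) or PLNs DIA 2 (adjusted p = 0.0831).

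The 2 Pdx1 probe sets disagreed between the tissues. Probe set 1422173_at had 6.86 to 386.6 in PLNs and 6.54 to 19.5 in fat and rose by 3.21 in PLNs (SE 0.73, adjusted p = 0.00225). Probe set 1422174_at had 1.10 to 117.2 in PLNs and 15.7 to 345.4 in fat and fell by 2.60 in PLNs (SE 0.81, adjusted p = 0.0052). No direction between the tissues can be given for Pdx1 as a gene. Slc30a8 was 2.37 to 191.3 in PLNs and 37.7 to 215.5 in fat (−1.58, SE 0.81, adjusted p = 0.0604), and it was called without PLNs DIA 1 (adjusted p = 0.0338) or PLNs AAT 1 (adjusted p = 0.00651). Sst was 10.1 to 834.8 in PLNs and 77.7 to 237.5 in fat (0.85, SE 0.64, adjusted p = 0.498), and Chga was 27.0 to 654.2 in PLNs and 73.5 to 184.2 in fat (0.46, SE 0.52, adjusted p = 0.818). For both, the fat arrays lay inside the PLN range. Gcg was 6.79 to 248.1 in PLNs and 7.99 to 128.7 in fat (1.22, SE 0.70, adjusted p = 0.291), and Ppy was 6.70 to 230.1 in PLNs and 8.46 to 47.8 in fat (1.49, SE 0.80, adjusted p = 0.223). The ranges overlapped for these hormones too.

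**Figure D3:**
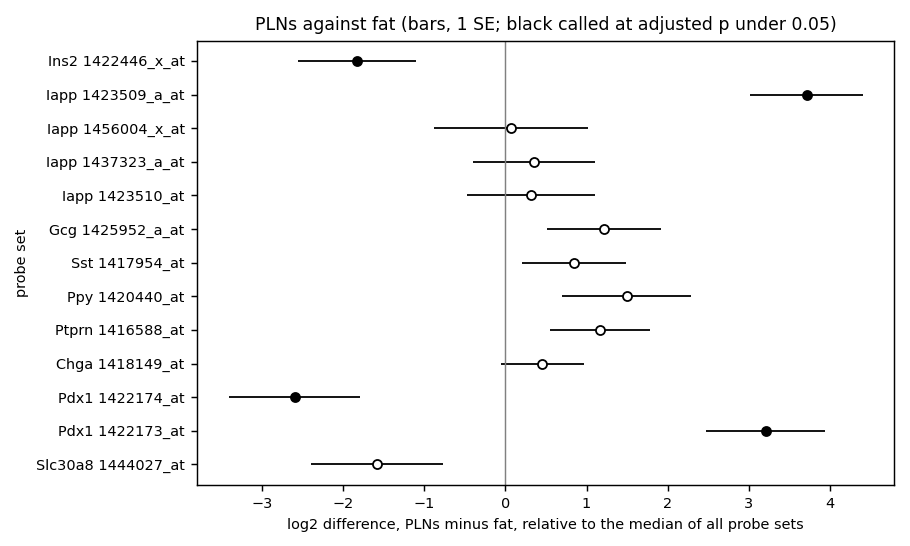
Log2 difference of each probe set between PLNs and fat, averaged over AAT, DIA and NOR and given relative to the median of all probe sets, with bars of 1 SE. Black points were called: Iapp 1423509_a_at and Pdx1 1422173_at lie right of 0 (higher in PLNs), Ins2 and Pdx1 1422174_at left of it.

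Fat served as the background tissue, which lies away from the islets. AAT vs NOR, the comparison with calls in PLNs, was not tested in fat. In fat, 0 of the 13 probe sets were called in PM vs DIA, AAT vs DIA or DIA vs NOR in limma, 0 passed an unadjusted p of 0.05, and 0% of all probe sets were called in any of these comparisons. At the study's thresholds 0 of the 13 passed, where 7.69%, 3.85% and 7.67% of all probe sets did in PM vs DIA, AAT vs DIA and DIA vs NOR. With 2 or 3 arrays a group, the median SE over all probe sets in fat was 0.715 to 0.783 on the log2 scale. As interactions between tissue and group, 0 of the 13 were called in limma, with 1 at an unadjusted p under 0.05 in each. The background was 0% for AAT vs DIA and 0.00444% for DIA vs NOR. At the study's thresholds 1 of the 13 passed in each, Ptprn for AAT vs DIA with a background of 8.14%, and Slc30a8 for DIA vs NOR (−4.48, SE 2.04, adjusted p = 0.524) with a background of 8.87%.

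Other genes of islet endocrine cells were counted beside these. Of 33 listed (granule proteins, prohormone convertases, islet transcription factors, channels and further autoantigens), 26 had a probe set, and 0 were called in limma in any of the 3 PLN comparisons (5, 3 and 5 at an unadjusted p under 0.05 in AAT vs NOR, AAT vs DIA and DIA vs NOR). At the study's thresholds 5 were lower and 0 higher in AAT vs NOR, 2 lower and 1 higher in AAT vs DIA, and 3 lower and 2 higher in DIA vs NOR. Of all probe sets, 20% were lower and 3.36% higher in AAT vs NOR, 11.7% and 4.83% in AAT vs DIA, and 7.15% and 2.66% in DIA vs NOR. Nkx2-2, an islet transcription factor, gave 1.92 to 60.5 in AAT and 46.5 to 249.2 in NOR, a change of −3.41 (SE 1.16, adjusted p = 0.0508). Cpe, the carboxypeptidase that trims prohormones and is also made outside islets, gave 1219 to 9490 in AAT, 308.7 and 1060 in DIA, and 2536 to 6259 in NOR. Its changes were 3.35 in AAT vs DIA (SE 0.70, adjusted p = 0.104) and −2.51 in DIA vs NOR (SE 0.70, adjusted p = 0.179). Isl1, a transcription factor of islet cells and neurons, gave 3.76 and 75.8 in DIA against 130.3 to 513.2 in NOR, a change of −3.71 (SE 1.18, adjusted p = 0.258). The 2 genes higher in DIA vs NOR at the study's thresholds were Ptprn2 (3.433, SE 1.518, adjusted p = 0.471) and Abcc8 (2.025, SE 0.842, adjusted p = 0.454). The median change as measured of the 26 genes in AAT vs NOR was −1.31, against −0.51 over all genes.

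The signals of Iapp, Sst, Ptprn and others of these genes moved with other values that differ between the PLN groups. Over the 10 PLN arrays, the Pearson correlation with the array median was 0.917 for Iapp 1423509_a_at, 0.874 for Sst and 0.832 for Ptprn. It was 0.827 for Slc30a8, 0.824 for Pdx1 1422174_at and 0.77 for Chga. The other probe sets had 0.05 to 0.678. AAT 2, AAT 3 and AAT 4 had the lowest 20th percentiles of the PLN arrays, and quantile normalization, which makes all arrays share 1 distribution, left a change of −4.09 for Ptprn (adjusted p = 0.0255) and −3.05 for Iapp 1423509_a_at (adjusted p = 0.0547) in AAT vs NOR. With quantile normalization and the raised floor together, Ptprn gave −2.19 (adjusted p = 0.0538) and Iapp −2.97 (adjusted p = 0.102), so neither was called. The 3′ to 5′ signal ratio of Gapdh is a measure of RNA integrity and amplification. It was 7.43, 20.6, 8.3 and 25.0 in AAT, 10 and 10.8 in DIA, and 5.55 to 8.01 in NOR. The same ratio of beta-actin was 1.23 to 2.01 in AAT, 0.881 and 1.1 in DIA, and 0.94 to 2.31 in NOR. The part of these ratios in the results was not tested.

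Adipocyte and acinar transcripts were also unequal between PLN arrays. Summed signals of the 9 adipocyte markers were 10750 to 59740 in AAT, 2756 and 4945 in DIA, and 3847 to 9033 in NOR. In AAT vs NOR, 3 of the 9 (Fabp4, Car3 and Lpl) were called higher, where 3.74% of all probe sets were called in either direction. Fabp4 rose by 3.18 on the log2 scale (SE 0.40, adjusted p = 0.0067, limma). Of 21 acinar genes, 0 were called in limma in AAT vs NOR and 6 had an unadjusted p under 0.05. At the study's thresholds these 6 were higher and 0 were lower, where 3.36% of all probe sets were higher and 20% lower. The chymotrypsinogen gene Ctrb1 ranged from 60.9 to 19540 in AAT and 13.96 to 77.5 in NOR (4.64, SE 1.18, adjusted p = 0.0621). Of 15 nerve and neuroendocrine genes, 0 were called in AAT vs NOR and 4 had an unadjusted p under 0.05, all lower, where 11189 of the 45037 probe sets had one. Of 7 duct cell genes, 0 were called and 0 had an unadjusted p under 0.05. The part of these cells in the results was not tested. In AAT 3, the array with by far the highest acinar signal, Ins2 was 16.2, Gcg 6.79, Sst 17.1 and Ptprn 6.26, while Ppy was 192.5 and Pdx1 1422173_at was 130.9. With DIA 1 and AAT 3 left out together, Ptprn changed by −4.54 in AAT vs NOR (adjusted p = 0.0217), and 2 of the 13 were called. In AAT vs DIA 1 of the 13 then remained past the study's thresholds.

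**Figure D4:**
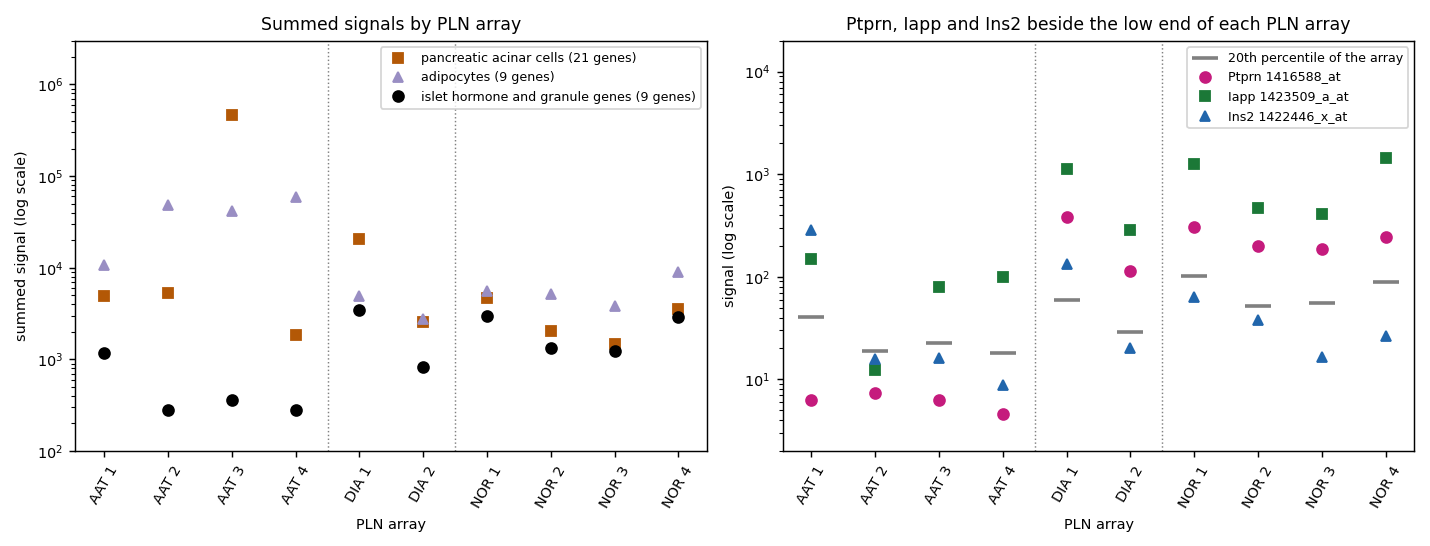
Left, summed signal (log axis) of 21 acinar genes, 9 adipocyte genes and the 9 islet hormone and granule genes (1 probe set each) in each PLN array. Right, Ptprn, Iapp and Ins2 signals (log axis) beside the 20th percentile of all signals of the array (grey dashes). The summed signal of the 9 islet genes was 279.3 to 1179 in AAT, 836.1 and 3486 in DIA, and 1243 to 3007 in NOR.

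No change was called for regulators of tissue antigen transcription in lymph node cells. All 4 listed genes had a probe set, 0 were called in limma in any PLN comparison, and 0 had an unadjusted p under 0.05. Aire gave 142.6 to 454.3 in AAT, 154.9 and 207.4 in DIA, and 154.1 to 816.1 in NOR, and the groups overlapped (AAT vs NOR 0.47, SE 0.62, adjusted p = 0.818).

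Across the 10 PLN arrays, the genes whose log2 signals were most like those of Iapp 1423509_a_at, among 10402 genes searched, were Gm6607 (Pearson r = 0.982), Zfp598 (0.964), Pex11g (0.955), Fbxo42 (0.953) and Myl2 (0.95). For Sst they were 4930520O04Rik (0.965), Rpl39 (0.962), Cyp2c55 (0.959), Plekha4 (0.954) and Tpcn2 (0.954). None of these 10 belongs to the islet lists. All of them, like Iapp and Sst, were lowest in AAT 2, an array with a low 20th percentile (18.7), and the arrays share their group and the low end of their signals, so these values are descriptions over 10 points.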

How the data were processed

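Fat and PLNs of female NOD mice were profiled on Affymetrix Mouse 430 2.0 arrays (19 arrays), with groups taken from the tissue and treatment in the labels. The deposited values are MAS5 signals in linear intensity, which the authors scaled so that the 2% trimmed mean of each array is 500. The MAS5 version is not stated. The study's methods name RMA with a rank product test, and RMA values were not used here. The label text names both a standard biotin labelling and a NuGEN amplification, and which was used for which array is not stated.

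Signals under 1 were set to 1 before log2, and 64 control probe sets were left out. Linear models with a mean for each group were fitted per tissue, and over all 19 arrays for PLNs vs fat and the interactions, with limma 3.58.1 (eBayes with a trend) in R 4.3.3. Adjustment followed Benjamini and Hochberg, over 45037 probe sets, of which 34945 named 1 gene, 932 several and 9160 none, for 18193 genes. Symbols were updated through Entrez identifiers. The probe set of highest mean stood for a gene. Named beside the 13 probe sets were, in each list, genes among the 3 with the highest mean or the smallest p, and the 5 genes most like the 2 with the highest PLN mean. Ptprn2 and Abcc8 were named besides, as the other islet endocrine genes higher in DIA vs NOR at the study's thresholds. The fits were tested on simulated data. The number of arrays limits the precision.

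The genes, lists and tests were chosen with earlier results of these data known. Alternatives were another set of arrays in the fit, a replicate block, quantile normalization, centring on the median, a filter on low signals (40th percentile), a floor under them (20th percentile), 32 added to the signal before log2, eBayes without trend, a gene's other probe sets, and leaving out each array. The floor was the 20th percentile of the pooled signals of all arrays in the fit. Leaving out DIA 1 and AAT 3 together, and quantile normalization with the floor, were chosen after seeing the data.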

Additional observations from a re-analysis of the deposited data

Results flagged for a closer look

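In 2 of 26 groups of 4 arrays examined, 1 array lay far from the others by Dixon's criterion, which chance alone meets in about 1 of 20 groups. Both concerned Gcg in PLNs. In AAT, array 3 had the lowest Gcg signal, 6.791, where the other AAT arrays had 33.06 to 45.42. In NOR, array 2 had the lowest, 48.35, where the other NOR arrays had 188.9 to 248.1. The gap was 0.833 of the range in both. AAT 3 was also the array with the highest summed acinar signal, and the part of that signal in its Gcg value was not tested.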

How the results depend on the processing

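The replicate numbers of the labels did not meet the criterion for pairing, a correlation over 0.1 in every pair of the same number. In PLNs 6 of 8 such pairs were over 0.1 (−0.041 to 0.281), as were 6 of 24 pairs of different numbers, and in fat pairs of the same number ranged from −0.261 to 0.291. With the replicate number as a block, 5 of the 13 probe sets were called in AAT vs NOR in place of 2, with Sst (adjusted p = 0.0163), Pdx1 1422174_at (adjusted p = 0.0333) and Slc30a8 (adjusted p = 0.0364) added, and Ins2 was no longer called in PLNs vs fat (−1.43, adjusted p = 0.0857).

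For AAT vs NOR, 1 probe set was called after the filter at the 40th percentile, after quantile normalization and without the trend, 0 after quantile normalization with the floor, and 1 to 4 when each array was left out. At the study's thresholds 2 of the 3 probe sets kept by the filter were lower. Of the 13, 4 were lower with the floor, and 2 after quantile normalization with the floor. Ptprn was not among the probe sets kept by the filter. The backgrounds given earlier belong to the fit of all arrays and probe sets as scaled in the files, and not to these settings. For AAT vs DIA, 3 were lower at these thresholds when only the compared groups were fitted, after the filter, after quantile normalization and after median centring, 2 after quantile normalization with the floor, 1 without DIA 1 and AAT 3, and 1 to 7 when each array was left out. The count called was then 0 to 1. For DIA vs NOR the 1 lower probe set became 0 after the filter and after quantile normalization with the floor, and 0 to 1 when each array was left out. A lone DIA array was assumed to vary like the other groups. For PLNs vs fat, 0 were called after the filter, which kept 2 of the 13 probe sets there and 3 in the PLN fits. The causes of the other differences were not tested.

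Other probe sets of a gene reversed its direction in 4 cases: Iapp 1423510_at in AAT vs DIA (2.82) and AAT vs NOR (2.11), Iapp 1456004_x_at in AAT vs NOR (1.42) and Pdx1 1422173_at in PLNs vs fat (3.21). Over all 329 alternatives of single genes, 302 kept direction and side of the threshold, 13 lost the call, 10 gained it and these 4 reversed. Among probe sets past the study's thresholds, the share lower in AAT vs DIA was 70.8% as scaled in the files, 41% after quantile normalization and 20.2% after median centring. In DIA vs NOR it was 72.9% and 58.5% after quantile normalization. Signals near the low end of an array, which many of these probe sets had, limit what can be measured.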
